A study of Mus musculus with 2 samples.

Results

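The genes described here carry bone morphogenetic protein (BMP) signals toward hepcidin, the liver hormone that limits iron release into blood. They are 10 genes: the ligands Bmp2 and Bmp6, the receptors Bmpr1a, Acvr1 and Bmpr2, the iron sensor Hfe, the protease gene Tmprss6, and the target genes Id1, Smad6 and Smad7, of which the last pair also encode inhibitors. They were taken by symbol through their Ensembl identifiers, and all 10 were found among the 43346 genes of the deposited tables. The tissue was whole liver of mouse embryos of strain B6NCrl at 15.5 days of development, described as healthy, with both sexes pooled. It was measured in 2 libraries of RNA above 200 nt, each from 10 ng of input with spike-in RNAs added. Replicate 1 pooled 78 embryos and replicate 2 pooled 62. There was a single group, with no treated or mutant animals, so what follows describes levels, transcript forms and the difference between the libraries.

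In the adult liver, BMP2 and BMP6 are made mainly by sinusoidal endothelial cells and act on neighbouring hepatocytes. They bind type I receptors (ALK3, encoded by Bmpr1a, and ALK2, encoded by Acvr1) together with a type II receptor such as BMPR2, with hemojuvelin as co-receptor, and the phosphorylated SMAD1 and SMAD5 proteins join SMAD4 and switch on the hepcidin gene Hamp. The same signal switches on Id1, Smad6 and Smad7, HFE and transferrin receptor 2 add information on circulating iron, and the protease matriptase-2 (Tmprss6) lowers the signal by cleaving hemojuvelin. These are background statements and were not measured here.

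The hepcidin promoter is known to hold short BMP-responsive elements with the letters GGCGCC, which SMAD proteins recognise. The start windows of Hamp, of Hfe and of Bmpr1a are shown because Hamp is the output of the pathway, Hfe held the most matches of short SMAD-binding letters among the members, and Bmpr1a held GGCGCC. They run 5′ to 3′ from 250 bases before to 50 after the start in RefSeq (GRCm38.p6), all on the minus strand. Capitals mark GGCGCC, which is its own reverse complement, and GTCTG with its reverse complement CAGAC, the short SMAD-binding letters.
Hamp, chr7:30943980-30944279: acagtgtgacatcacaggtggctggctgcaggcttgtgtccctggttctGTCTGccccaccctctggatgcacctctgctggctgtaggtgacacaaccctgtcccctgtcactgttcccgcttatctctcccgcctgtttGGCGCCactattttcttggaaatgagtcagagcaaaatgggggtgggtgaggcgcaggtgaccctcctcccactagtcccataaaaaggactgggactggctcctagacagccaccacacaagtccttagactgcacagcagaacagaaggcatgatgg
Hfe, chr13:23710805-23711104: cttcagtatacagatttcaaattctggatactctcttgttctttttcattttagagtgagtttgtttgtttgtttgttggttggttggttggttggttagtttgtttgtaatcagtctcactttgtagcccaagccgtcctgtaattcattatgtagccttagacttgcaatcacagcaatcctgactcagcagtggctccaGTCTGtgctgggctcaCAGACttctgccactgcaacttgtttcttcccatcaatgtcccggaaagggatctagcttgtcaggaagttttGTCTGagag
Bmpr1a, chr14:34502497-34502796: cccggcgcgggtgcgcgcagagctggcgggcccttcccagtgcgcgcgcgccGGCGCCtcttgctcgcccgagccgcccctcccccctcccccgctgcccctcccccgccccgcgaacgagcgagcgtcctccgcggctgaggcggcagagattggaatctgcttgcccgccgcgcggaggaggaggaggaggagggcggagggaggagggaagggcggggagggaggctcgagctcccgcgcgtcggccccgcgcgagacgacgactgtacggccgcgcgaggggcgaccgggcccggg

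The Hamp window held GGCGCC beginning 109 bases before the start, and GTCTG beginning 201 bases before it. That GGCGCC also reads TGGCGCC on both strands, the longer form searched, so the longer matches overlap it. Windows were given for 6 of the 10 genes (Bmp6, Bmpr1a, Bmpr2, Acvr1, Hfe and Smad6). GGCGCC was in 2 of them, Bmpr1a at 198 and Bmpr2 at 105 bases before the start. It was in 11.9% of all 32851 windows of 300 bases. GTCTG or CAGAC was in 2 others, Hfe with 3 matches and Bmp6 with 1 at 119 bases before the start, against 49.6% of all windows. TGGCGCC or GGCGCCA was in none of the 6 and in 4.03% of all windows. Acvr1 and Smad6 held none of these letters in the window. For Bmp6 and Bmpr2 the RefSeq start lies downstream of the GENCODE start of the gene, the start of Bmpr1a-201 lies inside the Bmpr1a window, and the leading Acvr1 transcript starts far outside the Acvr1 window, so these windows do not all face the start in use. The choice of the 3 windows shown was made after the matches were seen, and a match describes the letters only.

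Levels are given in TPM, an abundance corrected for transcript length and scaled to a fixed total in each library, with spike-ins left out, and as mean ± SD over the 2 libraries (n = 2). A gene counted as detected when neither library was below 1 TPM. Of the 10 genes, 7 were detected, against 28.4% of all genes and 53.1% of protein-coding genes. All 10 genes had counts in both libraries, and the 3 below the limit were Bmpr2, Smad7 and Bmp6. The values span from 26.1 TPM for Tmprss6 down to 0.124 TPM for Bmp6.

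**Figure D1:**
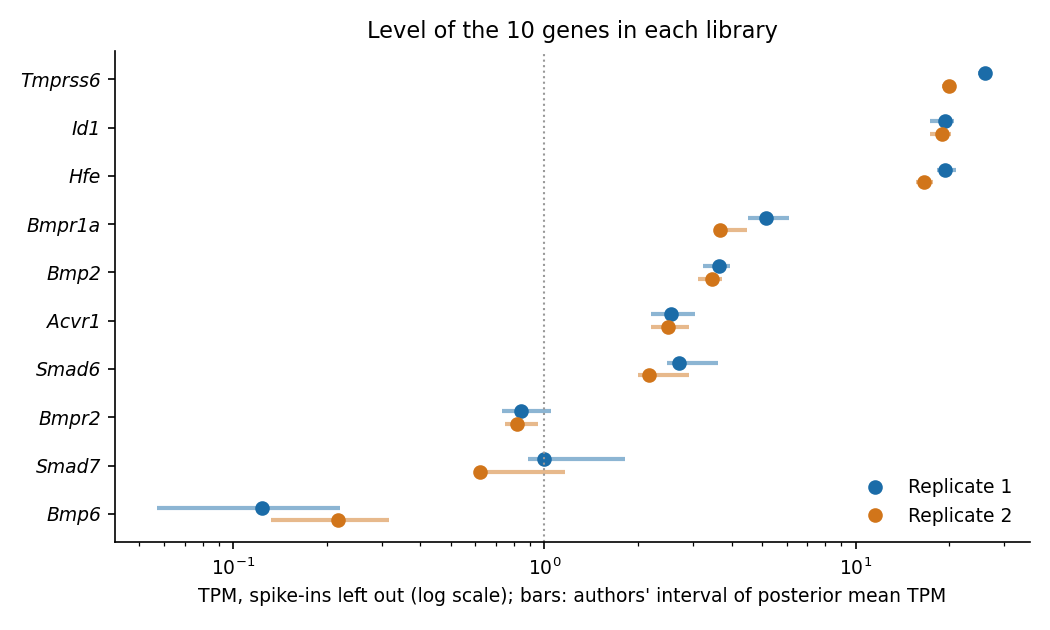
Level of each of the 10 genes in TPM (log axis) in replicate 1 (blue) and replicate 2 (orange); bars are the authors' deposited interval around their posterior mean TPM, and the dotted line marks 1 TPM. Tmprss6, Id1 and Hfe sit between 16.6 and 26.1 TPM, 4 genes lie between 2.17 and 5.15 TPM, and Bmpr2, Smad7 and Bmp6 lie below 1 TPM.

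Among the ligands, Bmp2 far exceeded Bmp6. Bmp2 (ENSMUSG00000027358; chromosome 2, 133552159 to 133562885, GRCm38) stood at 3.64 and 3.45 TPM in replicates 1 and 2 (3.54 ± 0.133, SD, n = 2), from 391 and 501 expected counts. Bmp6 (ENSMUSG00000039004; chromosome 13, 38345107 to 38500302) stood at 0.124 and 0.217 TPM (0.171 ± 0.0654), from only 9 and 21 expected counts. The libraries did not overlap between the genes: Bmp2 was 29.2-fold above Bmp6 in replicate 1 and 15.9-fold in replicate 2. The log2 ratio of Bmp6 to Bmp2 was -4.43 ± 0.62 (SD, n = 2), a difference several times its spread. An exact two-sided test over 2 libraries cannot reach a p below 0.05, so neither this nor any later ratio carries a p-value. The last 224 bases of Bmp6 overlap the end of Txndc5 on the other strand, which stood at 91.6 and 78.5 TPM. Whether the counting used strand is not given in the sources used here, so the few Bmp6 counts cannot be told from reads of that neighbour there, and their part was not tested.

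Bmp2 stood near the top of the ligand list: Bmp1, Gdf2 and Gdf15 had higher means, the last by little at 3.55 ± 0.562 TPM against 3.54 ± 0.133 TPM, with overlapping libraries. Of the 12 listed genes of this kind, 6 were detected. Bmp1, at 9.52 ± 0.418 TPM, was the highest, but it encodes a metalloproteinase that trims procollagen and not a BMP ligand. Gdf2, the gene of BMP9, reached 8.94 and 8.40 TPM and exceeded Bmp2 2.46-fold and 2.44-fold in replicates 1 and 2. Bmp5 and Bmp7, named after their values were seen, stood at 1.74 ± 0.399 and 1.74 ± 0.384 TPM, so Bmp2 exceeded each of them about equally, by 1.80-fold and 1.81-fold in replicate 1 and by 2.37-fold and 2.35-fold in replicate 2. Bmp3 was the lowest, at 0.0311 and 0.0206 TPM from 3 and 2 counts.

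The receptors were low but present. Bmpr1a (ENSMUSG00000021796; chromosome 14, 34410734 to 34503341), the type I receptor ALK3, stood at 5.15 and 3.67 TPM (4.41 ± 1.04, SD, n = 2). Acvr1 (ENSMUSG00000026836; chromosome 2, 58388644 to 58567157), the type I receptor ALK2, stood at 2.56 and 2.50 TPM (2.53 ± 0.0428). Bmpr1a was the higher in both libraries, by 2.01-fold and 1.47-fold, and the log2 ratio was 0.78 ± 0.32 (SD, n = 2). Bmpr2 (ENSMUSG00000067336; chromosome 1, 59763400 to 59879014), the type II receptor, stood at 0.839 and 0.815 TPM (0.827 ± 0.0167), below both type I receptors in each library.

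The low level of Bmpr2 depends on its length. Its main transcript measures 12899 nt, and the gene had 304 and 424 expected counts, more than the 211 and 280 of Acvr1. In CPM, counts scaled by the library total with no length correction, Bmpr2 stood at 8.93 and 9.59 and Acvr1 at 6.20 and 6.33, so the order of these receptors turned when length was not corrected. Of the other receptors, 4 of 5 were detected. The type II activin receptors Acvr2a and Acvr2b, which also bind BMPs, stood at 2.40 ± 0.269 and 2.02 ± 0.156 TPM. By TPM they exceeded Bmpr2 by 3.09-fold and 2.27-fold in replicate 1, and by 2.71-fold and 2.61-fold in replicate 2. By CPM, Acvr2a stayed above Bmpr2 at 12.3 and 11.7, but Acvr2b lay below it at 2.82 and 3.26. Bmpr1b, a further type I receptor, was the lowest at 0.0311 and 0.103 TPM.

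Tmprss6 and Hfe, which are known to work in hepatocytes, were among the 3 most abundant of the set. Hfe (ENSMUSG00000006611; chromosome 13, 23702034 to 23710854), an MHC-like protein that pairs with beta-2 microglobulin and transferrin receptors, stood at 19.3 and 16.6 TPM (18.0 ± 1.92, SD, n = 2). Tmprss6 (ENSMUSG00000016942; chromosome 15, 78439667 to 78468634), the gene of matriptase-2, stood at 26.1 and 20.0 TPM (23.0 ± 4.34), from 2514 and 2592 expected counts, the most of any member. Tmprss6 was above Hfe in both libraries, by 1.35-fold and 1.20-fold, and the log2 ratio was 0.35 ± 0.12 (SD, n = 2). Their library ranges did not overlap, but the lower Tmprss6 value, 19.96 TPM in replicate 2, lay only slightly above the higher Hfe value, 19.35 TPM in replicate 1.

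Partners of these proteins were measured in the same libraries. Tfr2, the second transferrin receptor, reached 48.6 and 41.5 TPM, 2.51-fold and 2.49-fold above Hfe. Hjv, the gene of the co-receptor hemojuvelin (Hfe2 in the annotation used), stood at 7.93 and 6.58 TPM, below Tmprss6 by 3.29-fold and 3.04-fold. The Tfr2 and Hfe ratio, at 2.50 ± 0.0117 (SD, n = 2), varied far less than either level. It was not alone in this: Hamp over Hfe, at 1.26 ± 0.00107, varied less. Gdf2 over Bmp2, at 2.45 ± 0.0152, varied about as little. With 2 libraries, such a small SD does not show that a ratio is stable. In the list of co-receptors and iron sensing genes 7 of 8 were detected. B2m, the light chain of HFE and of all class I molecules, was the highest at 398 ± 17.9 TPM. Tfrc, the gene of the first transferrin receptor, followed at 273 ± 8.83 TPM. Rgma, a relative of hemojuvelin, was the lowest at 0.104 and 0.145 TPM.

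The target genes differed widely in level. Id1 (ENSMUSG00000042745; chromosome 2, 152736251 to 152737410), an inhibitor of helix-loop-helix factors, stood at 19.4 and 19.0 TPM (19.2 ± 0.259, SD, n = 2), from 508 and 675 expected counts. Smad6 (ENSMUSG00000036867; chromosome 9, 63953076 to 64022059), an inhibitory SMAD that acts mostly on BMP signals, stood at 2.71 and 2.17 TPM (2.44 ± 0.386). Smad7 (ENSMUSG00000025880; chromosome 18, 75367529 to 75395935), an inhibitory SMAD that acts on BMP and TGF-beta signals, stood at 0.994 and 0.619 TPM (0.807 ± 0.265), from 97 and 109 counts. By TPM, Id1 thus exceeded Smad6 by 7.13-fold and 8.76-fold, and Smad6 exceeded Smad7 by 2.73-fold and 3.50-fold. The log2 ratio of Smad6 to Smad7 was 1.63 ± 0.25 (SD, n = 2). The step from Id1 to Smad6 depends on the correction for the short length of Id1. By CPM it was smaller, with Id1 at 14.9 and 15.3 and Smad6 at 7.14 and 5.93.

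Id1 was not the leading member of its own family. Id2 stood at 92.4 and 112.8 TPM and Id3 at 39.4 and 38.3 TPM, so Id2 exceeded Id1 by 4.77-fold and 5.94-fold and Id3 by 2.04-fold and 2.01-fold. Hamp, the hepcidin gene itself, stood at 24.4 and 20.97 TPM from 223 and 258 counts. By TPM this was 1.26-fold the level of Hfe in each library and between 0.936 and 1.05 times that of Tmprss6. These ratios depend on the correction for the short length of Hamp. By CPM, Hamp stood at 6.55 and 5.84, below Hfe at 30.8 and 27.3 and Tmprss6 at 73.9 and 58.6. Hamp2, the near-identical copy of Hamp, had 1 and 0 counts, and reads shared by the copies may be split uncertainly. Of the 9 other target genes, 3 were detected: Hamp, Id2 and Id3. Msx2 had 0 counts in each library, and a count of 0 leaves room for up to 0.0881 CPM in replicate 1 and 0.0679 CPM in replicate 2 (3 counts of the total, counting error only).

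**Figure D2:**
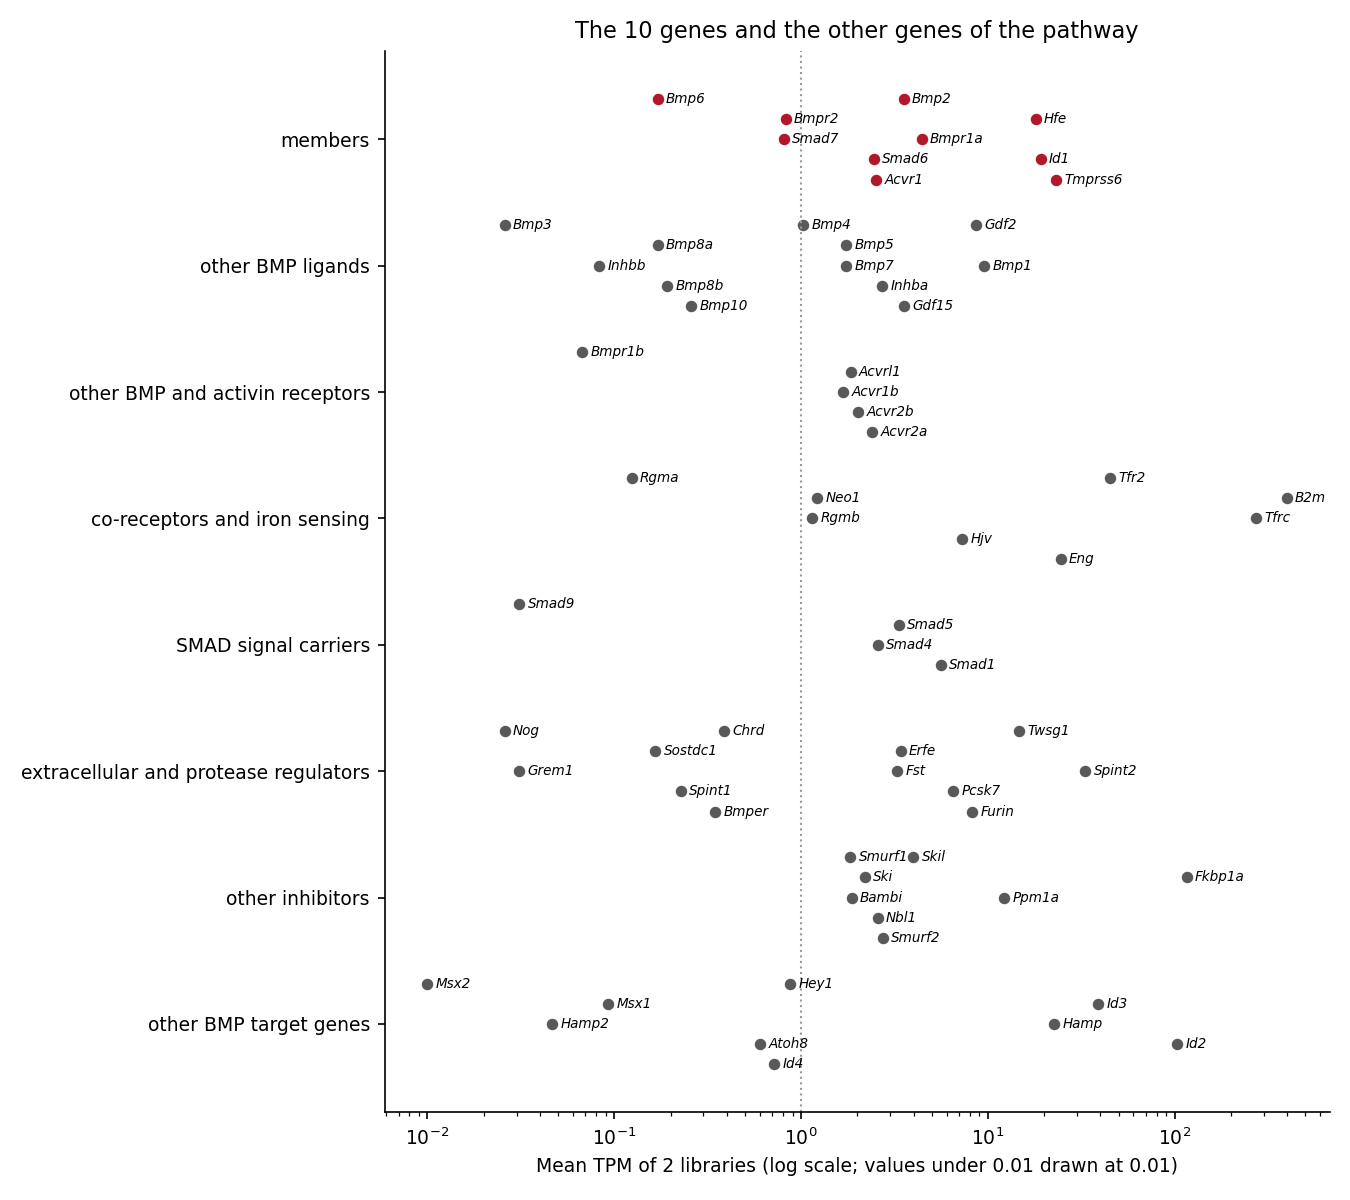
Mean TPM over 2 libraries (log axis) of the 10 genes (red) and of 58 other genes of the pathway (grey) by role, with the dotted line at 1 TPM; Msx2, listed at 0, is drawn at 0.01. All genes of the ligand list and all BMP and activin receptors lie below 10 TPM, while Hfe, Tmprss6, Tfr2, Hamp, Id1, Id2 and Id3 lie above 10 TPM. In the list of co-receptors and iron sensing, Tfrc and Eng also lie above it, Eng at 24.5 TPM and named after its values were seen.

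The carriers and inhibitors of the signal that act inside or at the surface of the cell were mostly present. Smad1 stood at 5.52 and 5.63 TPM, Smad5 at 3.55 and 3.10 TPM and the common partner Smad4 at 3.23 and 1.90 TPM, and 3 of the 4 carriers were detected. Smad9 was the lowest at 0.0104 and 0.0516 TPM, from 2 and 12 counts. Smad1 exceeded the inhibitor Smad6 by 2.03-fold and 2.60-fold. All 8 genes of the list of further inhibitors, which includes the secreted Nbl1 and the membrane protein Bambi, were detected, led by Fkbp1a, whose product binds type I receptors, at 116 ± 0.556 TPM and by the phosphatase gene Ppm1a at 12.2 ± 0.359 TPM, down to the ubiquitin ligase gene Smurf1 at 1.83 ± 0.195 TPM.

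Several secreted antagonists were below the detection limit: Nog, Chrd, Grem1, Bmper and Sostdc1, named together after their values were seen, reached at most 0.445 TPM (Chrd in replicate 1). Fst, which encodes the secreted antagonist follistatin, was detected at 3.57 and 2.97 TPM, and the secreted Twsg1 and Nbl1 were detected too. Of 12 extracellular and protease regulators, 6 were detected. Spint2, whose product inhibits matriptases, was the highest at 36.3 and 29.9 TPM, 1.39-fold and 1.499-fold above Tmprss6. Twsg1, a BMP-binding protein, followed at 14.7 ± 1.17 TPM. Erfe, the hormone by which red cell precursors lower hepcidin, stood at 3.89 and 2.93 TPM. Nog, which encodes noggin, was the lowest at 0.0207 and 0.0310 TPM from 1 and 2 counts.

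In order of mean TPM the members ran Tmprss6, Id1, Hfe, Bmpr1a, Bmp2, Acvr1, Smad6, Bmpr2, Smad7 and Bmp6. The libraries of Id1 and Hfe overlapped, as did those of Acvr1 and Smad6 and those of Bmpr2 and Smad7, so these neighbours were not separated by the spread. Tmprss6 and Id1, and likewise Bmpr1a and Bmp2, were separated over the libraries, but the authors' deposited intervals overlapped in replicate 2. By TPM, the steps from Hfe to Bmpr1a, 4.08-fold, and from Smad7 to Bmp6, 4.73-fold, were clear of both the library ranges and the deposited intervals. So were the steps from Smad6 to Bmpr2, 2.95-fold, and from Bmp2 to Acvr1, 1.40-fold. The step from Smad6 to Bmpr2 turned by CPM, with Smad6 at 7.14 and 5.93 and Bmpr2 at 8.93 and 9.59. The step from Hfe to Bmpr1a was smaller by CPM, at 30.8 and 27.3 against 22.0 and 20.0. Among detected protein-coding genes Tmprss6, Id1 and Hfe ranked at the 67.9, 63.4 and 61.7 percentile of mean TPM, and Bmpr1a, Bmp2, Acvr1 and Smad6 at the 25.4, 20.6, 14.0 and 13.4 percentile.

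The libraries were compared as the log2 ratio of TPM + 1, replicate 2 over replicate 1, which understates changes of low genes. With 1 library on each side there is no replicate check and no p-value. None of the 4 members at 5 TPM or more in either library (Tmprss6, Id1, Hfe and Bmpr1a) differed by more than 2-fold, against 0.672% of the 8781 genes at that level. All 7 detected members were lower in replicate 2, with a median of -0.21, while the median of all detected genes was -0.05 and 7593 of those 12331 genes were lower. The direction depended on the scale for some members. Under 8 ways of scaling, Tmprss6, Hfe, Bmpr1a, Smad6 and Smad7 were lower in replicate 2 in all 8 and Bmp6 was higher in all 8, whereas Bmp2 was lower in 5 and Id1, Acvr1 and Bmpr2 in 4. The spike-in scale moved the median of all detected genes from -0.05 to 0.13. Relative to the median of all detected genes by TPM, Bmpr1a lay at -0.35, Tmprss6 at -0.32 and Smad7 at -0.25. Smad6 lay at -0.18 and Hfe at -0.16. These 5 members lay below that median under all 8 scales. Most of these scales multiply each library by a constant, so apart from the added 1 TPM they could not change this place. Only posterior mean TPM and CPM could. By posterior mean TPM the 5 members had log2 ratios between -0.36 and -0.22, against a median of -0.05. By CPM they lay between -0.33 and -0.13, against -0.01.

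**Figure D3:**
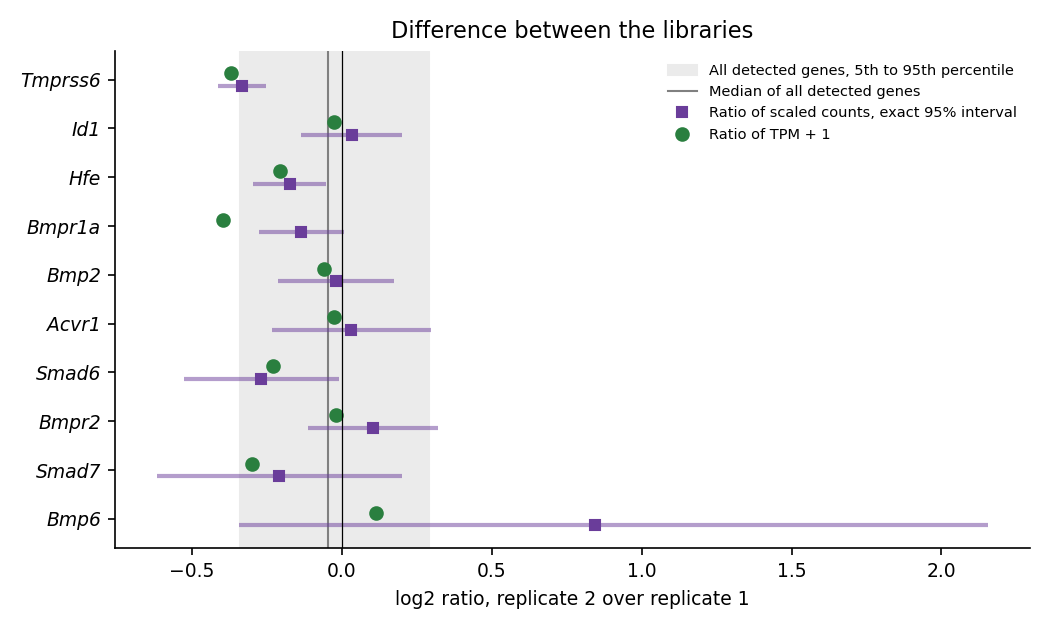
log2 ratio of replicate 2 over replicate 1 for each of the 10 genes, as TPM + 1 (green circles) and as counts scaled by library totals with their exact 95% interval (purple squares and bars, counting error only); the grey band spans all detected genes except the lowest and highest twentieth, from -0.34 to 0.29. Tmprss6 at -0.37 and Bmpr1a at -0.40 by TPM lie just outside the band. The band was drawn from ratios of TPM + 1, so it gives no comparison for the count ratios.

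Tmprss6 had the lowest count ratio of the 10 genes and the narrowest interval. The ratio was 0.794 with an exact 95% interval (Clopper-Pearson) from 0.751 to 0.839, and that of Hfe was 0.886, from 0.815 to 0.963. Smad6 had a ratio of 0.830 with an interval from 0.695 to 0.993. These 3 of the 7 detected members had an interval wholly below 1, as did 21.8% of all detected genes, and 0 members had an interval wholly above 1, as did 20.0%. By the authors' deposited TPM intervals, 3 of 7 members (Tmprss6, Hfe and Bmpr1a) were lower in replicate 2 without overlap, against 15.5% of detected genes, and 0 were higher, against 7.61%. Both intervals cover counting or assignment error within a library, not the spread between pools of embryos. Bmp6 had the highest ratio, 1.80, but its interval ran from 0.789 to 4.46.

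Cell type markers were compared between the libraries in the same way. All 10 hepatocyte markers, which ranged up to 15233 TPM, were lower in replicate 2, with a median log2 ratio of -0.31 and a summed level of 44778 and 34820 TPM in replicates 1 and 2. Hamp, Hjv and Tfr2 had log2 ratios of -0.21, -0.24 and -0.22, beside -0.21 for Hfe and -0.37 for Tmprss6. All 10 liver endothelial markers were also lower by TPM, with a median of -0.14 and sums of 126 and 111 TPM, beside -0.06 for Bmp2. Of these 10, only 4 had a count interval wholly below 1 and only 1 had deposited intervals apart. All 10 hepatocyte markers had both. The 8 macrophage markers had a median of -0.26, with 7 lower, and sums of 344 and 289 TPM. The 8 erythroid markers, which share Tfrc with the iron sensing list, had a median of -0.11, with 5 lower, while their sum was higher in replicate 2, at 82342 and 87285 TPM. The 8 stellate and mesenchymal markers had a median of -0.03, with 6 lower, and summed to 267 TPM in each library. The 6 megakaryocyte markers had a median of -0.15, with 4 lower, while their sum was higher in replicate 2, at 453 and 464 TPM. In such mixed tissue, fewer cells of a type and less RNA per cell cannot be told apart, and the part of these markers in the members' differences was not tested.

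Markers of other organs also differed between the pools. The 6 pancreas markers summed to 58.1 and 15.0 TPM in replicates 1 and 2, with the lipase gene Pnlip at 0 counts in both, and the 7 muscle markers summed to 241 and 348 TPM. Their part in the members' values was not tested. All hepatocyte markers, which define the labelled tissue, were at 15.7 TPM or more. Depth was 34039426 expected counts in replicate 1 and 44200838 in replicate 2.

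**Figure D4:**
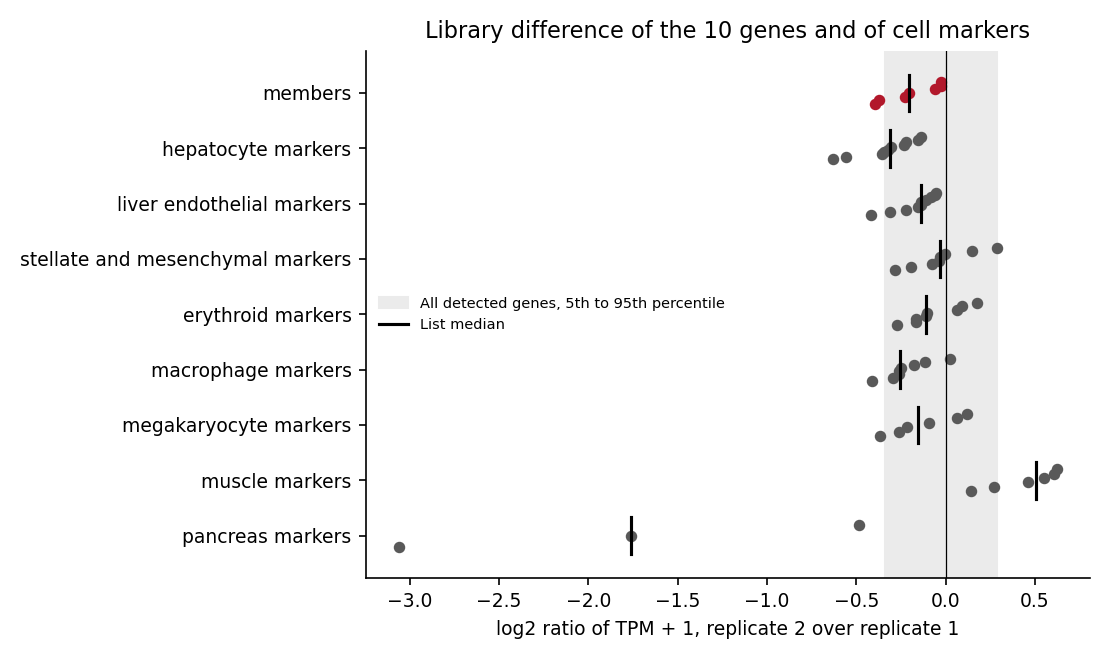
log2 ratio of TPM + 1, replicate 2 over replicate 1, of each detected gene among the 10 genes (red) and in 8 marker lists (grey), with the list median as a black line and the middle of all detected genes as a grey band. All hepatocyte and endothelial markers lie below 0, muscle markers lie above 0, and pancreas markers reach -3.06.

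Transcript tables gave the forms behind these levels. The members had 30 annotated transcripts, 3 genes (Bmp2, Bmp6 and Tmprss6) having a single form and 7 having several. The leading form was protein-coding and the same in both libraries for all 10. Hfe-202 (1766 nt), which starts at 23710854, held 89.3% and 88.4% of Hfe in replicates 1 and 2. Id1-201 (934 nt) held 96.7% and 94.9% of Id1, Smad6-201 (2971 nt) held all TPM of Smad6, and Bmpr2-201 held 88.9% and 94.9% of Bmpr2. By the authors' posterior mean TPM these shares were lower for Smad6-201, at 88.6% and 88.2%, and for Bmpr2-201, at 83.3% and 90.7%. Hfe-202 was lower too, at 85.6% and 86.0%. Acvr1-203 (2891 nt), which starts at 58516272 inside the gene, held 78.4% and 67.4% of Acvr1, while the upstream form Acvr1-204, from 58566828, held 11.4% and 14.5%.

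For Bmpr1a and Smad7 the libraries differed in the forms to which reads were assigned. Bmpr1a-201 (5956 nt) held 74.5% of Bmpr1a in replicate 1 and 97.2% in replicate 2, at 3.84 and 3.57 TPM. The short form Bmpr1a-203 (869 nt), named after its values were seen, made up 16.1% of TPM in replicate 1 from 19.9 expected counts, and 0.281% in replicate 2 from 0.40. Bmpr1a-202 (1945 nt), also named after its values were seen, held 9.44% and 2.53%, at 0.487 and 0.0929 TPM. By the authors' posterior mean TPM, which also gives a share to forms with 0 expected counts, the libraries differed less. Bmpr1a-201 held 71.1% and 86.3% by that measure, and Bmpr1a-203 held 16.4% and 5.71%. All 3 forms were lower in replicate 2 by TPM, and the whole gene was 0.714 times as high in replicate 2 by TPM, but 0.911 times by scaled counts, with an exact interval from 0.826 to 1.01. Gm17110, an antisense gene that overlaps Bmpr1a from 34501715 to 34502684, had 5.82 and 2.15 counts, which cannot be told from reads of Bmpr1a without strand.

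Smad7 showed the same kind of difference at a lower depth. Smad7-201 (4278 nt) held 56.2% of Smad7 in replicate 1 and all of it in replicate 2, and Smad7-202 (1882 nt) held the other 43.75% in replicate 1, from 24.2 expected counts. By posterior mean TPM, Smad7-201 held 42.8% and 68.1%. The whole gene stood at 0.623 times its replicate 1 level in replicate 2 by TPM and at 0.865 times by scaled counts, with an interval from 0.652 to 1.15. For both genes, the SD of the leading share, 16.05 and 30.9 percentage points, was larger than for any other member.

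**Figure D5:**
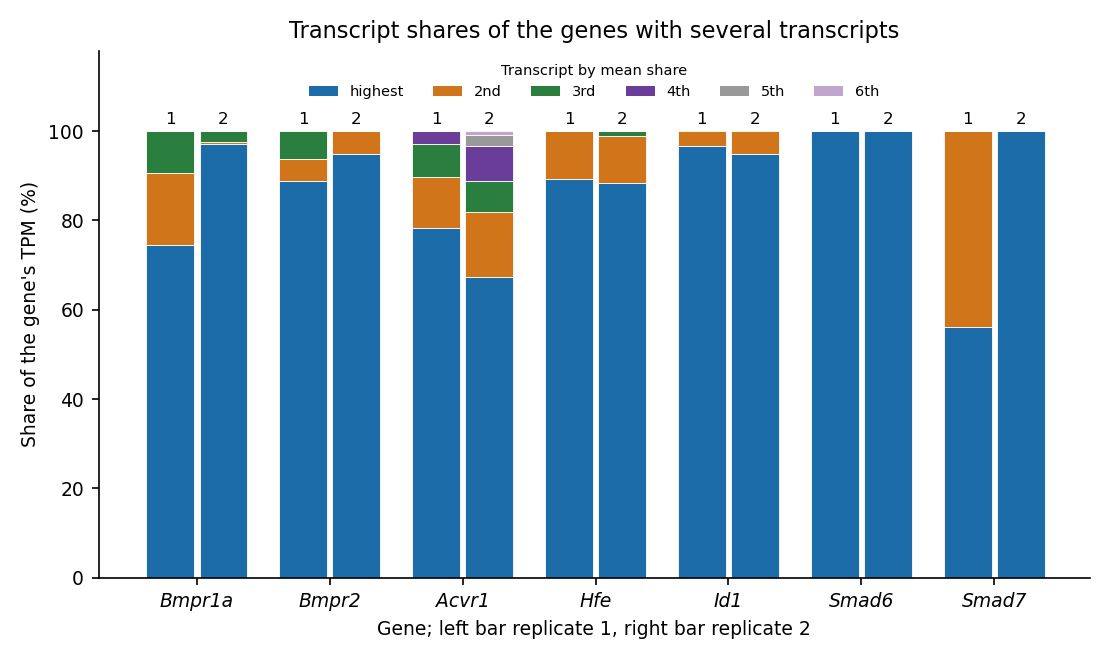
Share of each gene's TPM (%, stacked bars) held by its annotated transcripts in replicate 1 (left bar) and replicate 2 (right bar), for the 7 genes with several transcripts, coloured by rank of the mean share. The leading form of Bmpr1a fills 74.5% and 97.2% of the bars and that of Smad7 56.2% and 100%, while Hfe, Id1 and Smad6 look alike in both bars.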

How the data were processed

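Gene and transcript tables of 2 libraries were used. Per the companion descriptions deposited with them, they were made on mm10 with annotation M4; for the aligner and quantifier no name is given in the sources used here. Expected counts, as deposited by the authors, are unscaled estimates. TPM and its posterior mean, also deposited, are length-corrected abundances of the authors with spike-ins in the total, and their interval bounds are signal values on the TPM scale, whose level is not stated. The deposited percent values (the authors' transcript shares from posterior mean TPM) served as an alternative to shares recomputed from TPM.

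Spike-ins (97 entries) and 26248 entries with numeric identifiers were left out and TPM rescaled. Symbols and coordinates came from GENCODE M21 (GRCm38), which named 42462 genes, and start windows from RefSeq. All 10 members were named in the text, and of each pathway list the highest pair and the lowest, with 9 further preset genes; of transcripts, the leading one and any with 20% or more. A gene of the lists is not reported here. Members and lists were chosen with earlier results of these data known. Count ratios used rounded expected counts. They were tested on simulated libraries that held set folds and counting error only. That test does not show how the intervals behave with the spread between the real libraries. Reads without molecular identifiers are not independent molecules, so intervals and floors cover counting error only. The libraries differed beyond sampling noise (chi-square per degree of freedom 18.0 over genes with at least 10 counts), so they were kept as 2 replicates. Alternatives were 7 other scales or units (TMM with edgeR 4.0.16, size factors with DESeq2 1.42.0), other limits, pseudocounts, transcript sets and single libraries. Tables were handled with pandas 2.3.3 and NumPy 2.4.6 in Python 3.11.15, intervals with SciPy 1.17.1, figures with matplotlib 3.10.9, and scaling factors in R 4.3.3.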

Additional observations from a re-analysis of the deposited data

How the results depend on the processing

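The number of detected members, 7, was also found by TMM, size-factor and spike-in scaling, by posterior mean TPM, by TPM as deposited, at a limit of 2 TPM and in each library alone. It was 9 by CPM, at a limit of 0.5 TPM and when the 4 adult globin genes, which held 38.1% and 38.9% of TPM, were left out of the total (chosen after the data were seen), and 3 at a limit of 5 TPM. No member differed by more than 2-fold under any of the 10 alternatives tried. The 4 log2 ratios between members given below kept their sign under the alternatives run for them; other orders, such as Bmpr2 and Acvr1, turned by CPM. With 1 TPM added to both genes, Bmp6 to Bmp2 was -1.96 and Smad6 to Smad7 0.93. By CPM, which favours long transcripts, Bmpr1a to Acvr1 was 1.74, Tmprss6 to Hfe 1.18 and Smad6 to Smad7 1.30. By posterior mean TPM, Smad6 to Smad7 was 1.33. Single libraries gave -4.87 to -3.99 for Bmp6 to Bmp2, 0.56 to 1.01 for Bmpr1a to Acvr1, 1.45 to 1.81 for Smad6 to Smad7 and 0.26 to 0.43 for Tmprss6 to Hfe. Bmp6, with 9 and 21 counts, and Smad7, with 97 and 109, are limited by depth. Of 70 recomputed mean levels 26 moved by more than 1 SD, as did 5 of 14 leading transcript shares. The moved levels include all those by CPM, which is another unit, and all those without the globin genes, where the total is smaller. Such moves follow from the change of scale. The rest were levels of Bmpr2, Acvr1, Id1 and Smad7 by posterior mean TPM or by TPM as deposited. With 2 libraries the SD itself is poorly known.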

Other observations

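The ligand list also held genes of the activin branch and of a stress signal, which were named here after their values were seen. Inhba, the gene of the activin A subunit, stood at 3.17 and 2.25 TPM in replicates 1 and 2, beside 3.57 and 2.97 TPM for Fst, the gene of its antagonist follistatin. Inhbb, the gene of the activin B subunit, had 11 and 15 counts (0.0829 and 0.0826 TPM). Gdf15, a cytokine raised by cell stress, stood at 3.15 and 3.94 TPM.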
